A study of Danio rerio with 4 samples.

Results

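The genes described here encode the replicative MCM helicase, its loading and activation factors CDT1 and MCM10, and the replication clamp PCNA. They were chosen by symbol: mcm2, mcm3, mcm4, mcm5, mcm6, mcm7, mcm10, pcna and cdt1, 9 genes in all. Of these, 7 have a row among the 11021 genes of the deposited table, and mcm2 and cdt1 were not analysed here. The study set livers of 5 dpf (days post fertilisation) zebrafish larvae with the genotype Tg(fabp10:has.UHRF1-GFP), from a line called high in the series text, against livers of the same age with the genotype Tg(fabp10:nls-mCherry). Both transgenes use the fabp10 promoter, which is active in hepatocytes, so the first group makes human UHRF1 fused to GFP in hepatocytes and keeps its own zebrafish uhrf1 gene, and the second makes nuclear mCherry. The labels name 2 libraries in each group. The values used here come from the UHRF1-high livers, in libraries named A and B; the 2 mCherry libraries were not analysed here. Nothing is therefore compared with the control or tested, and every level below is a level in UHRF1-high livers. The labels do not say how many livers went into a library or whether the 2 libraries go back to separate clutches, so the spread between A and B may be technical.

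Before a cell copies its DNA, the origin recognition complex, CDC6 and CDT1 load rings of the MCM2-7 subunits onto origins, a step called licensing. In S phase CDC45 and the GINS complex join each ring to form the active helicase, with MCM10 needed for its activation, and the ring then unwinds DNA ahead of the polymerases. PCNA is a sliding clamp that holds polymerases and many other proteins on DNA, among them the maintenance methyltransferase DNMT1, which UHRF1 brings to newly copied DNA. In mammals these genes are targets of E2F transcription factors and are widely used as markers of proliferating cells, including growing or regenerating liver.

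Quantile normalisation makes each value a restatement of the gene's rank within its library, and sequencing depth is unknown. Whether the authors divided values by transcript length is not stated, so an order of values between different genes need not be an order of molecules per cell. The median value of all genes was 4.36 in A and 4.41 in B. The libraries differed in markers of several cell types. All 11 hepatocyte markers had a row; they summed to 257447 in A and to 243238 in B. That sum is carried by genes of the first ranks, such as apoa1b and apoa2, whose values of 130650 and 73737 are equal in both libraries because their ranks are. Of the 11 hepatocyte markers, 5 were higher in A and 3 higher in B. At least 2-fold higher in A were 3: tfa with 12758 against 2207, serpina1 with 4796 against 1567 and gc with 610 against 84.9. The genes fgb (1282 and 1162) and fga (1335 and 1250) differed little. Higher in B were cp (34.1 and 63.8), fgg (898 and 1133) and ambp (1691 and 1728). All 10 exocrine pancreas markers with a row were at least 2-fold higher in A, with a summed value of 11387 in A and 1288 in B. All 13 skeletal muscle markers were at least 2-fold higher in B, with sums of 303 and 3369. Of all genes with a mean of at least 1, 7.07% were at least 2-fold higher in A and 6.83% in B. By any amount, 51.0% were higher in B. The 6 skin markers had sums of 168 and 513 and the 5 leukocyte markers 23.4 and 98.4, again with every marker higher in B. Biliary markers had sums of 1039 and 2428 with 3 of 4 higher in B, endothelial markers 18.5 and 20.4, and intestinal markers 2706 and 1426. The highest markers by mean were try and ctrb1 for exocrine pancreas, actc1b and pvalb2 for muscle, krt4 and epcam for skin, coro1a and lcp1 for leukocytes, krt8 and krt18 for biliary cells, fli1a and kdrl for endothelium, and apoa4 and fabp2 for intestine. The intestinal gene cdx1b was listed at 0 in B, and no other marker with a row was listed at 0 in either library. In A no gene at all was listed at 0. The lowest value of A, 0.0203, was held by 694 genes, among them the muscle marker ckmt2, which had 11.7 in B.

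**Figure D1:**
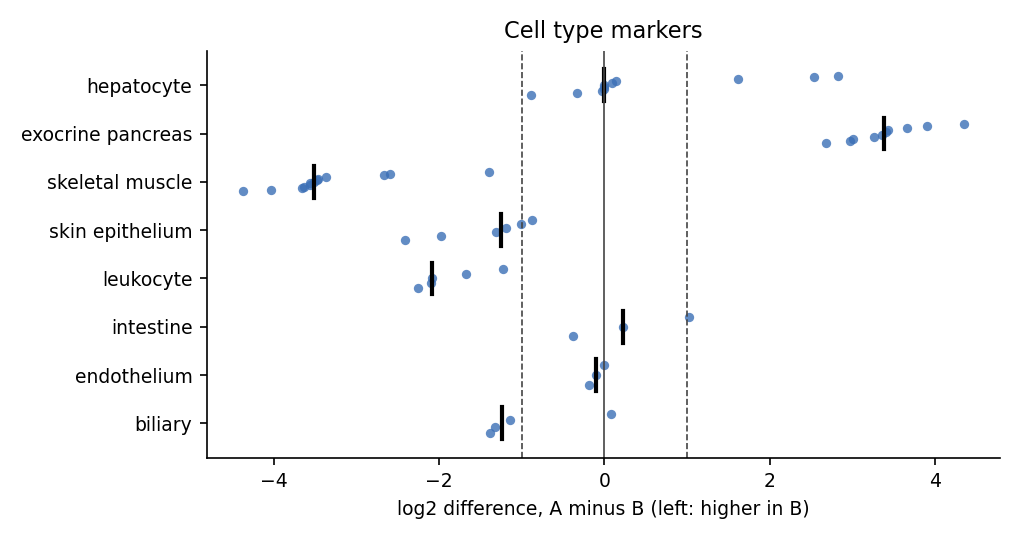
Log2 difference between the UHRF1-high libraries (A minus B, on log2(value + 1)) for the markers of 8 cell types with a mean value of at least 1; each point is a gene, black bars are list medians and dashed lines mark 2-fold. Exocrine pancreas markers lie to the right, higher in A, and skeletal muscle, skin and leukocyte markers to the left, higher in B.

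The clamp gene pcna had the highest value of the 7 genes. The gene lies on chromosome 10 at 42187909 to 42192590 (Zv9). Its value was 73.9 in A and 175 in B (mean 124 ± 71.2, SD, n = 2). These values put pcna at rank 938 of all genes in A and rank 499 in B, or percentiles 91.5 and 95.5. Both values lay far above the median of all genes, and B had the higher one.

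Of the 6 genes for the subunits of the MCM2-7 ring, 5 were measured, and mcm7 had the highest value of them in both libraries. It lies on chromosome 14 at 201281 to 212699, and its value was 24.9 in A and 48.7 in B (mean 36.8 ± 16.8). The gene mcm4, on chromosome 24 at 37031313 to 37056309, had 10.6 in A and 22.9 in B (mean 16.8 ± 8.69). MCM4, MCM6 and MCM7 together form a core of the ring that unwinds DNA by itself in biochemical assays. The gene mcm6, on chromosome 6 at 12880043 to 12897268, had 5.28 in A and 7.06 in B (mean 6.17 ± 1.26), the smallest spread relative to its level among the 7 genes. MCM2 and MCM5 form the gate of the ring through which DNA enters. The gene mcm5, on chromosome 3 at 27023644 to 27035660, had 8.75 in A and 13.4 in B (mean 11.1 ± 3.26). MCM3 is the subunit through which the ring is first drawn to the loading complex. Its gene, on chromosome 16 at 54766793 to 54780403, had the lowest value of the 5, with 1.93 in A and 4.52 in B (mean 3.23 ± 1.83). In A it lay below the median of all genes, at percentile 34.5, and in B close to it, at percentile 50.5.

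The order of the 5 values was mcm7, mcm4, mcm5, mcm6, mcm3 in both libraries. The highest exceeded the lowest 12.9-fold in A and 10.8-fold in B. Among neighbours in this order, mcm4 and mcm5 overlapped over the libraries: the lower value of mcm4 was 10.6 and the higher value of mcm5 was 13.4. The other neighbours did not overlap, though narrowly for mcm7 above mcm4 (24.9 against 22.9) and for mcm6 above mcm3 (5.28 against 4.52). The spans of 6 of the 7 genes overlap no other gene of the table. The span of mcm5 shares 3 bases at its lower end with hmox1, the haem oxygenase gene, which had 22.1 in A and 28.4 in B. It also lies inside the very long span listed for zgc:165627, which had 0.0203 and 0.365. If reads in shared spans were assigned to both genes, the value of mcm5 is uncertain to that extent.

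**Figure D2:**
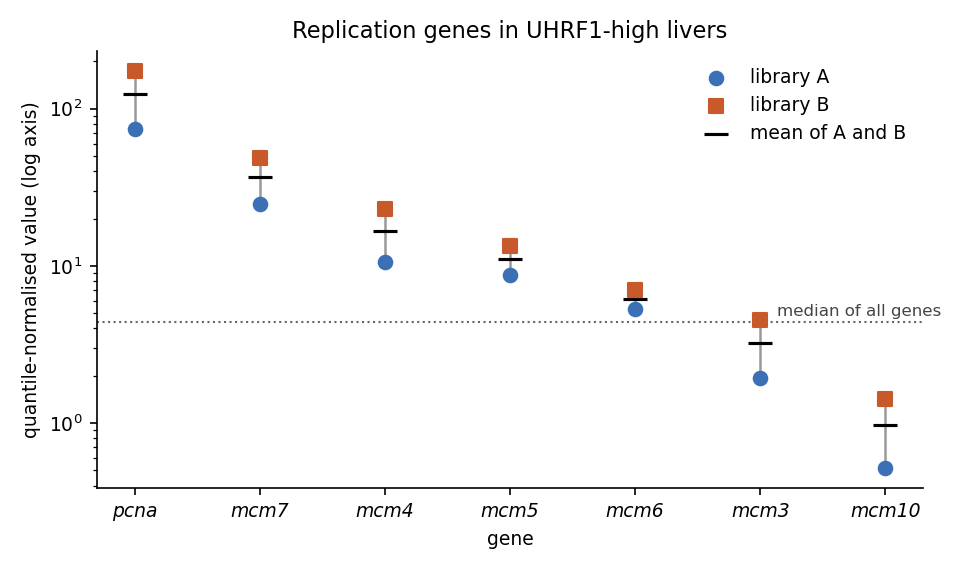
Quantile-normalised value (log axis) of the 7 measured genes in libraries A (circles) and B (squares) of UHRF1-high livers, with the mean of both (black bar) and the median of all genes (dotted line). Every gene has the higher value in B, and the order from pcna (73.9 and 175) down to mcm10 (0.518 and 1.42) is the same in both libraries.

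All 7 genes had a higher value in library B than in A. The plain ratio of B to A was 2.75 for mcm10, 2.36 for pcna, 2.34 for mcm3, 2.16 for mcm4, 1.95 for mcm7, 1.53 for mcm5 and 1.34 for mcm6. On log2(value + 1), a scale that understates differences of low genes, 6 of the 7 genes passed the filter of a mean of at least 1; mcm10 had a mean of 0.972. Over these 6 genes the median difference, A minus B, was -0.93, or 1.90-fold higher in B, where the median over all 8386 genes above the filter was -0.02; with mcm10 included the median was -0.91. All 6 were higher in B, against 51.0% of all genes above the filter, and 2 of the 6, pcna and mcm4, were at least 2-fold higher in B, against 6.83%. This count depends on the pseudocount: with 10 in place of 1, mcm4 (-0.68) was no longer 2-fold higher and pcna (-1.14) still was, and with 0.1, mcm3 (-1.18) was 2-fold higher as well. The count over all 8386 genes moved too, from 573 with 1 to 134 with 10 and 854 with 0.1. With the pseudocount of 1, the share among the 5612 genes whose mean lies in the range of these 6 was 6.47%. The difference was -1.23 for pcna, -1.04 for mcm4, -0.94 for mcm7, -0.91 for mcm3, -0.56 for mcm5 and -0.36 for mcm6. Counted over all genes above the filter, pcna lay at percentile 4.07 of the differences, where low percentiles are towards B. The corresponding percentiles were 6.30 for mcm4, 7.86 for mcm7, 8.36 for mcm3, 18.0 for mcm5 and 27.3 for mcm6. These are differences between 1 library and 1 library of the same group and have no replicate check. The muscle, skin and leukocyte markers were higher in B as well, by medians of 11.5-fold, 2.39-fold and 4.24-fold, and the exocrine pancreas markers were higher in A by 10.4-fold; their part in the result was not tested. In a whole liver, more dividing cells and more of these RNAs per cell cannot be told apart.

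**Figure D3:**
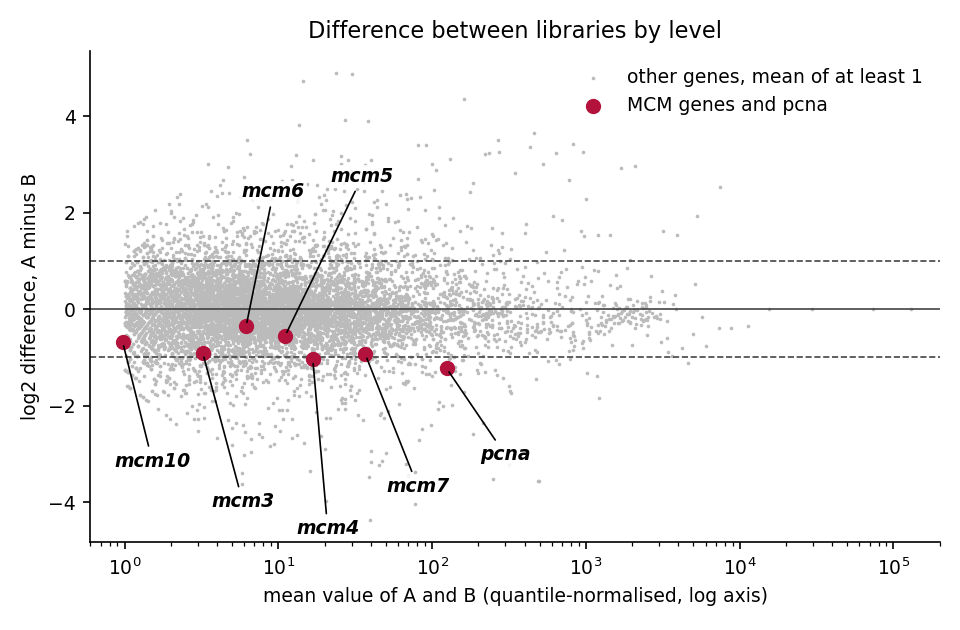
Log2 difference between the libraries (A minus B, on log2(value + 1)) against the mean value (log axis) for genes with a mean of at least 1 (grey), with the 6 replication genes above that filter and mcm10 just below it (red); dashed lines mark 2-fold. All 7 lie below 0, with pcna (-1.23) and mcm4 (-1.04) past the lower line and mcm6 (-0.36) closest to 0.

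The ring genes had unequal ratios of B to A. With 1 library against 1, such a spread cannot be told apart from noise around 1 common factor. The summed value of the ring genes was 51.5 in A and 96.5 in B, a ratio of 1.87. The share of this sum held by mcm7 was 48.4% in A and 50.4% in B, and that of mcm4 20.6% and 23.7%. The share of mcm3 was 3.76% and 4.69%. The shares of mcm5 and mcm6 were smaller in B, with 17.0% in A and 13.8% in B for mcm5 and 10.3% and 7.31% for mcm6. If values were not divided by transcript length, these shares would depend on it. Because quantile normalisation acts on ranks, the ratio of B to A for a single gene could then shift with length too. On log2(value + 1), mcm4 exceeded mcm6 by 0.89 in A and by 1.57 in B. By the plain ratio of B to A, the subunits ranged from 1.34 for mcm6 to 2.34 for mcm3. The value of mcm3 in A is low and coarse: 54 genes, mcm3 included, hold it. The value of pcna was 1.44 times the summed value of the 5 ring genes in A and 1.81 times in B.

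**Figure D4:**
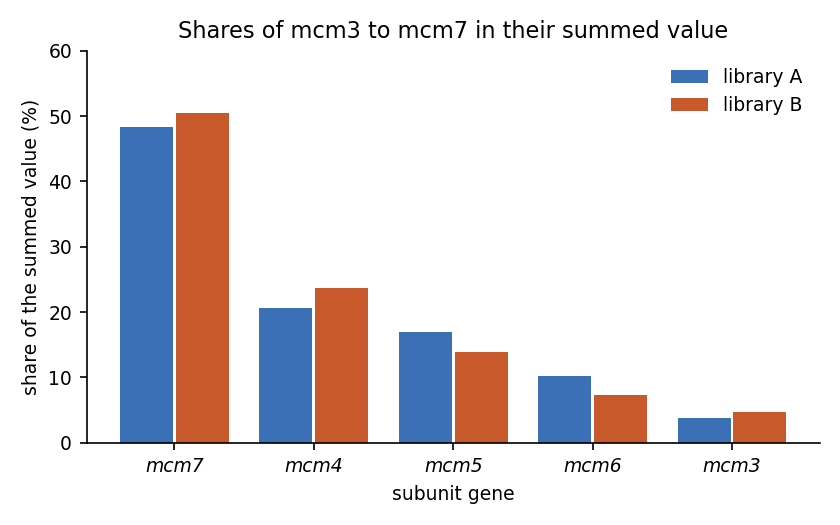
Share of each subunit gene in the summed value of mcm3 to mcm7 (%) in libraries A and B of UHRF1-high livers, 1 bar for each library. The shares of mcm7, mcm4 and mcm3 are larger in B, and those of mcm5 (17.0% and 13.8%) and mcm6 (10.3% and 7.31%) are smaller.

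The activation factor gene mcm10, on chromosome 4 at 7031402 to 7049856, had the lowest values, 0.518 in A and 1.42 in B (mean 0.972 ± 0.641). At this level values are coarse: 91 genes, mcm10 included, hold the same value in A and 49 in B. Its percentiles among all genes were 17.1 and 30.0.

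Licensing genes beside the MCM ring were also higher in B. Of the list of origin recognition and licensing genes, 9 of 9 had a row and a mean of at least 1, and all 9 were higher in B, against 51.0% of all genes above the filter. Of these, orc5 (0.518 in A and 1.67 in B) passed the filter only through B. At least 2-fold higher on log2(value + 1) were 0 of the 9, against 6.83% of all genes. That scale understates differences of low genes. By plain ratio of B to A, orc5 (3.22), orc3 (2.76), orc6 (2.26), cdc6 (2.22), orc4 (2.17), orc1 (2.13) and orc2 (2.06) exceeded 2-fold. The genes gmnn (1.59) and mcmbp (1.37) did not. The share of all genes over 2-fold by plain ratio was not computed, so 6.83% is no measure for these ratios. With a pseudocount of 0.1 in place of 1, 854 of the 8386 genes above the filter were at least 2-fold higher in B, in place of 573. The 2-fold counts of the lists below are on log2(value + 1). The median difference of the 9 genes was -0.79, or 1.73-fold, and the differences ranged from -0.98 to -0.38. The median was -1.09 with a pseudocount of 0.1 and -0.20 with 10. The gene with the highest value was gmnn, for geminin, the inhibitor that holds CDT1 inactive after licensing, with 9.51 in A and 15.1 in B (mean 12.3 ± 3.95). The origin recognition subunit genes orc4 (5.06 and 11.0) and orc3 (1.08 and 2.98) had the largest differences of the list. The loading factor gene cdc6 had 1.24 in A and 2.75 in B. The gene mcmbp, whose product binds MCM3 to MCM7 in place of MCM2, had 4.47 and 6.12. The row zgc:153041, an older symbol of orc2, had 2.75 and 5.67. Muscle, skin and leukocyte markers were higher in B too, as given above, and their part in these differences was not tested.

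The genes that turn the loaded ring into an active helicase had low values. Of 16 listed, 10 had a row and 6 a mean of at least 1. B had the higher value for 5 of the 6, or 83.3% against 51.0% of all genes. Of these 5, topbp1 (0.651 in A and 1.42 in B) passed the filter only through B. On log2(value + 1), 0 of the 6 were at least 2-fold higher in B, against 6.83% of all genes. That scale understates differences of low genes. The plain ratios of B to A were 2.55 for wdhd1, 2.39 for gins2, 2.37 for gins4, 2.19 for topbp1, 1.90 for gins1 and 0.842 for gins3. No share of all genes was computed for plain ratios, so these cannot be set against 6.83%. The median difference was -0.72, and it was -1.10 with a pseudocount of 0.1 and -0.19 with 10. The GINS subunit genes gins2 (1.79 in A and 4.28 in B), gins1 (1.87 and 3.57) and gins4 (1.06 and 2.51) were higher in B. The fourth subunit gene, gins3, went the other way with 1.81 and 1.53. The gene wdhd1, which links the helicase to the polymerase that starts new strands, had 1.08 and 2.75. The helicase partner gene cdc45 lay under the filter at 0.651 and 1.21 and so did the kinase gene cdc7 at 0.487 and 0.935.

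The genes that load the clamp were also mostly higher in B. Of 10 clamp loader and unloader genes, 9 had a row and 8 a mean of at least 1; 6 were higher in B and 4 at least 2-fold, where 51.0% and 6.83% of all genes were. The median difference was -0.98, or 1.98-fold; it was -0.28 with a pseudocount of 10. The loader subunit genes rfc5 (2.88 in A and 7.83 in B), rfc4 (4.77 and 11.5) and rfc2 (3.55 and 7.22) were among these 6. The subunit gene with the highest value, rfc3, hardly differed, with 12.6 and 12.3. The alternative loader genes dscc1 (0.518 and 3.19) and chtf18 (0.304 and 2.06) had the largest differences. Both are among the 4 counted as at least 2-fold, lay under 1 in A and passed the filter only through B. The gene chtf8 of the same alternative loader went the other way with 1.93 and 1.47. As with the ring genes, subunits of 1 complex had unequal ratios between A and B, which 1 library against 1 cannot tell from noise.

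Among DNA polymerase and primase genes, 10 of 12 had a row and 9 a mean of at least 1; 7 were higher in B against 51.0% of all genes, 1 of them at least 2-fold, a share near the 6.83% of all genes, and the median was -0.33. The catalytic subunit gene of polymerase delta, pold1, had 2.08 in A and 6.14 in B, while its partner gene pold3 had 1.83 and 1.06. The polymerase epsilon genes pole3 (9.63 and 18.6) and pole2 (2.16 and 5.02) were higher in B. The primase gene prim1 had 3.40 and 4.52, and zgc:110727, an older symbol of prim2, had 3.24 and 2.06. The polymerase alpha subunit gene pola2 had the same values as prim1, and si:dkey-28b4.7, an older symbol of pold4, had 35.7 and 44.5. All 10 measured genes for single-strand binding and lagging strand processing were higher in B, by at least 2-fold for 3, where the shares of all genes were 51.0% and 6.83%, and their median was -0.56. The single-strand binding genes rpa1 (12.6 and 19.8), rpa2 (11.8 and 21.6) and rpa3 (6.51 and 21.2) were all higher in B. The flap nuclease gene fen1, whose product works on the clamp, had 5.91 and 13.9, and the topoisomerase gene top1l had 12.0 and 17.4. Of 8 nucleotide supply genes 7 were higher in B and 2 at least 2-fold, again beside 51.0% and 6.83% of all genes, with a median of -0.58. They included dut (9.63 and 25.1), which removes dUTP, the ribonucleotide reductase gene rrm1 (7.83 and 18.3) and the thymidylate synthase gene tyms (7.94 and 16.5). The dihydrofolate reductase gene dhfr went the other way with 7.67 and 6.61.

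Genes that regulate replication and package the copied DNA had list medians nearer 0, between -0.21 and -0.10. Of 24 genes for E2F factors, their partners, RB proteins and G1/S cyclins, 17 had a row and 14 passed the filter. Of these 14, 8 were higher in B and 6 higher in A, with a median of -0.10. The share higher in B, 57.1%, is near the 51.0% of all genes. Of the 8, ccne1 and rbl1 lay under 1 in A and passed the filter only through B. The E2F partner genes tfdp1b (7.69 in A and 15.1 in B) and tfdp1a (11.1 and 13.2) had higher values in B, as did the cyclin gene ccne1 (0.651 and 2.60). The cyclin genes ccnd2a (6.10 and 3.19) and ccnd1 (7.24 and 6.55) and the repressor-type factor gene e2f4 (3.76 and 2.51) were higher in A, and the kinase gene cdk2 had 7.58 and 7.32. Of the chromatin assembly list, 8 of 11 had a row, and each passed the filter. B had the higher value for 5, or 62.5% against 51.0% of all genes, and the median was -0.19. The histone chaperone gene nasp was 1.98-fold higher in B by the plain ratio, chaf1a (5.06 and 9.23) and asf1bb (6.32 and 7.60) were also higher in B, and ssrp1a (13.2 and 11.1) was higher in A. The endogenous uhrf1 gene had 1.74 in A and 0.976 in B and passed the filter only through A. It was among the 20 genes higher in A of the 84 genes above the filter in all replication lists, while dnmt1 had 2.14 and 3.30. The human transgene is not a row of the table, so these values do not check the label. Of the 6 genes for the ubiquitin ligases that destroy CDT1, all had a row and 5 passed the filter. B had the higher value for 3 of the 5, or 60% against 51.0% of all genes, and the median was -0.21. Of the 3, dtl passed the filter only through B. The substrate receptor gene dtl was low at 0.772 and 1.26, while the common subunit genes rbx1 (138 and 195), cul4a (40.2 and 46.8) and ddb1 (42.6 and 39.2) had far higher values in both libraries. The cullin gene cul4b went the other way from cul4a with 8.30 and 3.89.

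Fork protection and checkpoint genes had a median near 0. The list holds the symbol and3, which is actinodin 3, a fin fold gene and not a fork gene. Its value was 1.79 in A and 13.2 in B. Without it, 6 genes passed the filter, 3 higher in each library, or 50% in B against 51.0% of all genes. On log2(value + 1), 1 of the 6, rad17, was at least 2-fold higher in A, against 7.07% of all genes. At least 2-fold higher in B were 0, against 6.83%. The median difference was -0.0010 without and3 and -0.26 with it. The fork gene tipin had 3.95 and 6.32, and its partner timeless had 2.36 and 1.67. The checkpoint clamp loader gene rad17 was higher in A, with 3.95 and 1.24, and the checkpoint gene atrip had 7.44 and 6.04. The list of other MCM family members (mcm8, mcm9, mcm3l, mcm6l and mcmdc2) was not analysed here.

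Over all replication lists together, 95 genes had a row and 84 a mean of at least 1. Of these, 64 were higher in B, or 76.2% against 51.0% of all genes. On log2(value + 1), 12 were at least 2-fold higher in B, or 14.3% against 6.83%. Among these 12, dscc1, chtf18 and ccne1 lay under 1 in A and passed the filter only through B. The same holds for orc5, topbp1, rbl1 and dtl among the 64, while uhrf1, higher in A, passed only through A. In the other direction 1 gene, rad17, was at least 2-fold higher in A on the same scale, where the share of all genes was 7.07%. The median difference was -0.48. These counts and this median include and3, which is not a fork gene. Without it, 63 of 83 genes were higher in B (75.9%), 11 were at least 2-fold higher in B (13.3%), and the median was -0.46. By plain ratio more genes exceeded 2-fold, among them tyms (7.94 in A and 16.5 in B) and pole2 (2.16 and 5.02). Towards A, cul4b (8.30 and 3.89) did so as well. The share of all genes over 2-fold by plain ratio was not computed, so this adds nothing to the comparison with 6.83%. Markers of muscle, skin, leukocytes and biliary cells were higher in B at the same time, by medians of 11.5-fold, 2.39-fold, 4.24-fold and 2.35-fold, and their part in these list differences was not tested. The order of the list medians depends on the pseudocount: with 1 the clamp loaders (-0.98) lay further towards B than the list of single-strand binding and lagging strand genes (-0.56), and with 10 they did not (-0.28 against -0.36). The lists were chosen with earlier results of these data known, and no test sets one list against another.

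**Figure D5:**
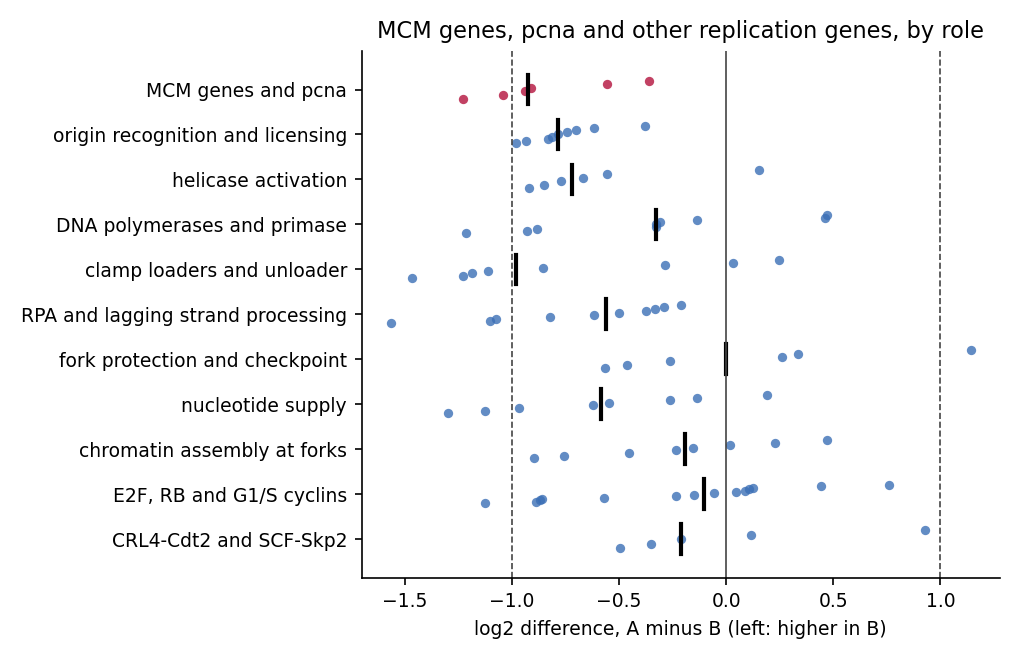
Log2 difference between the libraries (A minus B, on log2(value + 1)) for the MCM genes and pcna (red) and the other replication genes by role (blue), genes with a mean of at least 1 and without and3; black bars are medians and dashed lines mark 2-fold. With this pseudocount of 1 the medians of the clamp loaders (-0.98), the MCM genes and pcna (-0.93) and the licensing genes (-0.79) lie furthest towards B, an order that does not hold with a pseudocount of 10.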

How the data were processed

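Per the labels' protocols, RNA of zebrafish livers was extracted with Trizol, selected for poly-A tails, fragmented and sequenced after ligation of bar-coded adapters. The submitters' processing notes name CASAVA 1.7 and the build Zv9 (danRer7). The authors quantile-normalised the deposited signal values, per the file's name; for the counting method, the earlier unit and the gene filter, nothing is given in the sources used here. Columns were matched to samples by title, and 0 other per-sample columns were left unused. Starts are printed counted from 1, since 3 starts are listed at 0.

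Levels are means ± SD of the 2 UHRF1-high libraries. Differences were computed on log2(value + 1) over genes with a mean of at least 1 (Python 3.11.15, pandas 2.3.3, numpy 2.4.6), after the calculation was checked on simulated data. List genes without a row under their symbol were matched through a unique older symbol of the RefSeq table. All 7 measured members are named; of each of the 11 replication lists, the 4 highest by mean and the 2 furthest in each direction, and of the marker lists the 2 highest. Outside that rule, cdc6, cdc45, cdc7, prim1, dnmt1, cdx1b, the hepatocyte markers tfa, serpina1, gc, fgb, fga, cp, fgg and ambp, and the neighbours of the members were chosen after their values were seen. So were orc1, orc5, orc6, topbp1, rbl1 and the muscle marker ckmt2. The members and lists were chosen with earlier results of these data known. The alternatives were another pseudocount (0.1 or 10), another filter, median scaling and 1 library alone. Quantile normalisation hides depth, so no counting interval can be given.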

Additional observations from a re-analysis of the deposited data

How the results depend on the processing

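Of the 21 recomputed differences of the 7 genes (pseudocounts of 0.1 and 10, median scaling), 6 moved by over 1.5 times. All 21 kept the direction towards B, but a pseudocount cannot change a direction. Median scaling hardly alters quantile-normalised values, so the kept direction is no check of the result. With a pseudocount of 10 the median over the MCM genes and pcna was -0.50 and that over all replication lists -0.16, and genes at least 2-fold apart numbered 188 towards A and 134 towards B; with a pseudocount of 0.1 mcm10 differed by -1.30. When genes needed a mean of 10, which leaves fewer genes, 320 lay at least 2-fold towards A and 238 towards B, and the clamp loaders were left with rfc3 alone, at 0.033. A level taken from 1 library alone lies within 1 SD of the mean by construction with 2 libraries. Protein lengths were not used here, so the planned division by length was not run. No paired analysis was possible because the table analysed holds 1 group. With 1 library against 1, what the spread between UHRF1-high livers is cannot be read from these differences, and low values such as those of mcm10 are coarse.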

Other observations

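The genes whose values in the 2 libraries lay closest to the median of mcm3 to mcm7 (8.75 in A and 13.4 in B, the values of mcm5) were entpd6, vat1, thoc7, zgc:92818 and ruvbl2, by Euclidean distance on log2(value + 1). Of these entpd6 was nearest, with 8.77 in A and 13.4 in B, and ruvbl2, a gene for an ATPase of chromatin remodelling complexes, had 8.56 and 13.1. With only 2 libraries this likeness is weak: 73 genes lay within a distance of 0.2. The genes closest to pcna were krt4, tagln2, bzw1b, zgc:153629 and lgmn, of which only krt4 and tagln2 lay within 0.2. The keratin gene krt4, which is among the skin markers, had 69.4 in A and 160 in B, beside 73.9 and 175 for pcna.

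Of the nearest neighbours of the 6 measured MCM genes in the table, 3 were higher in A (slc39a3, ube2v2 and nudt5) and 3 in B (hmox1, tmbim1 and and4). The gene ube2v2, 2381 bases from mcm4, had 107 in A and 95.1 in B, and nudt5, 679 bases from mcm10, had 25.8 and 23.6. The gene tmbim1, 10660 bases from mcm6, had 1.26 and 3.79. The neighbour of mcm7, 13742 bases away, is the actinodin gene and4, which encodes a structural protein of the fin fold; it had 0.487 in A and 9.45 in B. The other actinodin gene named above, and3, had 1.79 and 13.2, so both fin fold genes were higher in B.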
